A study of Homo sapiens with 9 samples.

Results

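The nuclear genes of the mitochondrial respiratory chain were examined in SW480 cells, an established human colorectal adenocarcinoma line. The genes were taken by symbol: the prefixes NDUFA, NDUFB, NDUFC, NDUFS, NDUFV, UQCR, ATP5, COX4, COX5, COX6, COX7 and COX8, together with SDHA, SDHB, SDHC, SDHD and CYC1, leaving out ATP5S and antisense names. This gave 97 of the 20878 genes in the count table. Each gene was represented by the transcript with the highest total count over the 9 libraries. Of the 97, 37 encode complex I subunits, 4 complex II, 9 complex III, 17 complex IV and 16 complex V, and 8 encode assembly factors. The remaining 6 are read-through transcripts, pseudogenes or gene copies, and they are described apart. NDUFA4, NDUFA4L2 and COX7A2L were placed with complex IV.

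The study sequenced polyA RNA from 3 groups of 3 libraries. The APC group is line D2.15, which is SW480 carrying pEF-mycAPC, a myc-tagged APC construct. The CONTROL group is line R38.7, which is SW480 carrying the pEF vector without it. The SW480 group is the parental line with no vector. Both derived lines were kept in G418 at 1.5 mg/ml and the parental line was not. All cells grew in supplemented RPMI, were passaged 3 times, and gave RNA 72 h after plating. The APC line was plated less densely, at 2 against 3.35 for CONTROL and SW480 on the labels' common scale. Each group is 1 line grown on 3 plates, so p-values measure the spread between plates. The transgene, the derivation of the line and the plating density cannot be told apart in APC against CONTROL. APC against SW480 differs also in vector and drug, and CONTROL against SW480 shows the difference between lines that lack the transgene.

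The respiratory chain passes electrons from NADH (complex I) and succinate (complex II) through coenzyme Q to complex III, cytochrome c and complex IV, and complex V uses the resulting proton gradient to make ATP. Most subunits are encoded in the nucleus and a small set in mitochondrial DNA. Colonic epithelial cells depend on this pathway to oxidise butyrate, while many colorectal cancers also run a high rate of glycolysis.

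Total counts ranged from 16456738 to 19358025 per library. APC transcript, which the counts do not split into endogenous and transgene reads, averaged 145 ± 5.0 CPM in APC cells, 47.9 ± 1.59 in CONTROL and 49.3 ± 2.46 in SW480 (CPM, counts scaled to library size with TMM factors; SD, n = 3 each). Library correlations were 0.995 to 0.996 within groups and 0.901 to 0.982 between groups. Epithelial markers were present, with EPCAM at 382 ± 15.9 CPM in APC, 42.4 ± 1.57 in CONTROL and 49.4 ± 1.16 in SW480, while LGALS4 stayed under 1 CPM in every library. Of the 7 epithelial markers tested, 4 were higher and 2 lower in APC than in CONTROL, and 4 were higher and 3 lower in APC than in SW480; CDX2 had the lowest log2 fold changes, -0.73 and -0.86. Summed CPM of the 7 leukocyte markers with counts ran from 38.2 to 40.1 in APC, 12.2 to 15.1 in CONTROL and 19.1 to 20.2 in SW480, mostly CORO1A, with CD3E near 0. The sum of the 6 fibroblast markers with counts was 17.1 to 17.9 CPM in APC, 36.3 to 40.6 in CONTROL and 42.7 to 46.9 in SW480, mostly FBLN1 and COL1A1, with LUM and COL1A2 near 0. Endothelial markers summed to at most 1.52 CPM. The part of these markers in the respiratory gene results was not tested. The share of counts on the 45S ribosomal RNA precursor was 2.70% to 3.12% in the APC libraries, 2.38% to 2.40% in the CONTROL libraries and 2.69% to 3.50% in the SW480 libraries. CONTROL was thus below all other libraries, and APC replicate 1 (3.12%) and SW480 replicate 1 (3.50%) were the highest of their groups. The part of this share in the results was not tested. Without APC replicate 1, 46 members were higher and 12 lower in APC than in CONTROL. Where a member's values in all libraries are printed below, a call that turns on SW480 replicate 1 is also given without it. Calls of other members turned on that library too. Among them, ATP5C1, NDUFS5 and UQCRQ lost their calls in APC against SW480. In CONTROL against SW480, ATP5F1, COX7C and NDUFB1 lost theirs, and NDUFS7 and NDUFB10 gained one.

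Respiratory chain transcripts were more often higher than lower in APC cells. Of 91 members that passed the filter on low counts, 47 were higher and 13 lower in APC than in CONTROL (edgeR's quasi-likelihood test at an adjusted p under 0.05 over 14255 genes). Over all genes tested, 34.8% were higher and 35.4% lower. In APC against SW480, 65 members were higher and 7 lower, where 35.6% and 36.9% of all genes were. In CONTROL against SW480, 41 were higher and 6 lower, where 25.3% and 24.7% of all genes were. Members' median log2 fold changes were 0.12, 0.24 and 0.12 in these 3 comparisons, and the medians over all genes were all -0.01. The comparisons share libraries, so their counts are not independent of each other. The 47 and the 65 include COX7B2, which had 0 counts in every CONTROL and SW480 library. COX7B2 passed the filter only through its APC counts, so its higher calls follow from that and are not separate evidence. The 6 members under the filter were COX4I2, COX7A1, NDUFA4L2, ATP5L2, ATP5EP2 and NDUFAF4P1.

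The changes were small. Among members in complexes or assembly, called changes had a median size of 0.28 on the log2 scale in APC against CONTROL, against 0.50 over all called genes. In APC against SW480 the median sizes were 0.31 for members and 0.51 for all called genes, and in CONTROL against SW480 they were 0.20 and 0.32. These medians cover called genes only, and a gene with few counts is called only at a larger change. The part of expression level in the gap was not tested. Without COX7B2 (0 counts in every CONTROL and SW480 library), fitted changes passed 2-fold for 3 of 57 called members in APC against CONTROL. They did so for 2 of 68 in APC against SW480 and for 0 of 45 in CONTROL against SW480. Over all called genes, 26.1%, 26.3% and 9.79% passed 2-fold in the same order of comparisons. All 3 APC libraries lay above all 6 others for 43 of the 91 members and below them for 6, against 28.3% and 28.7% of all genes. The 43 include COX7B2. The 6 below were NDUFA12, UQCRC1, COX6B2, NDUFA4, ATP5G2 and NDUFAF1. In RNA from a whole plate, fewer expressing cells and less RNA per cell cannot be told apart.

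**Figure D1:**
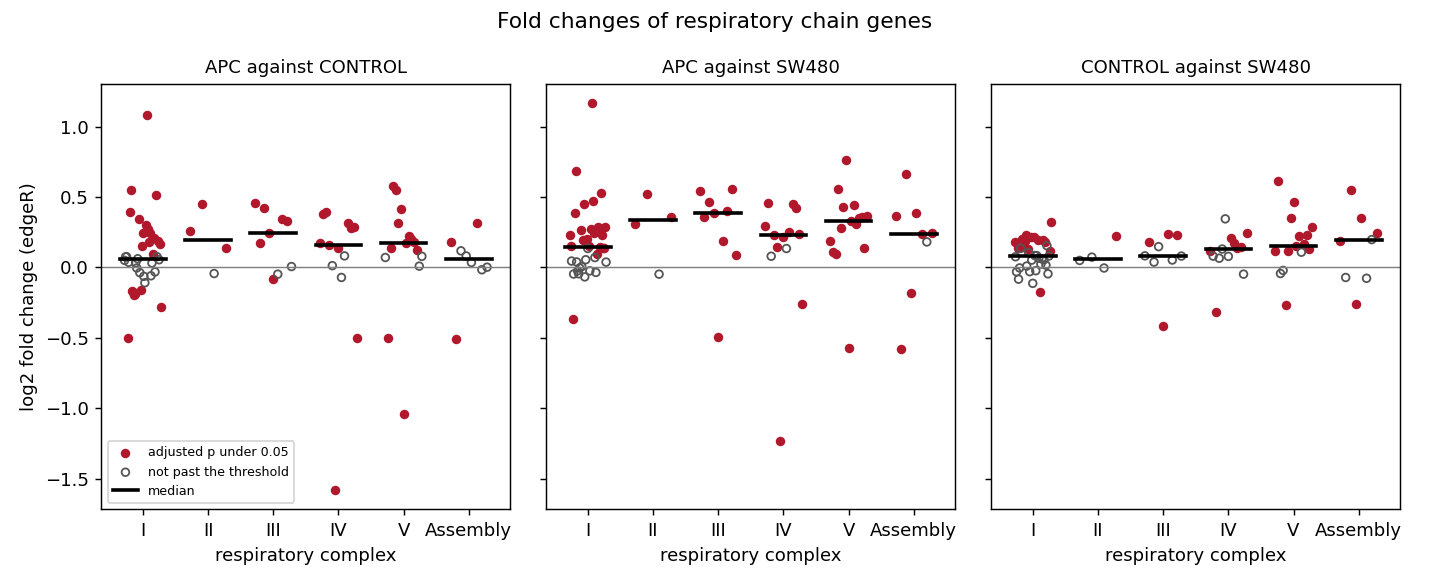
Log2 fold change of each tested gene (y axis, edgeR) by respiratory complex (x axis) in APC against CONTROL, APC against SW480 and CONTROL against SW480; filled points pass an adjusted p of 0.05, open points do not, and bars are medians. COX7B2, with 0 counts in 6 libraries, is not drawn; most filled points lie above 0, and ATP5G2, COX6B2 and NDUFA12 lie below it in both APC panels.

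**Figure D2:**
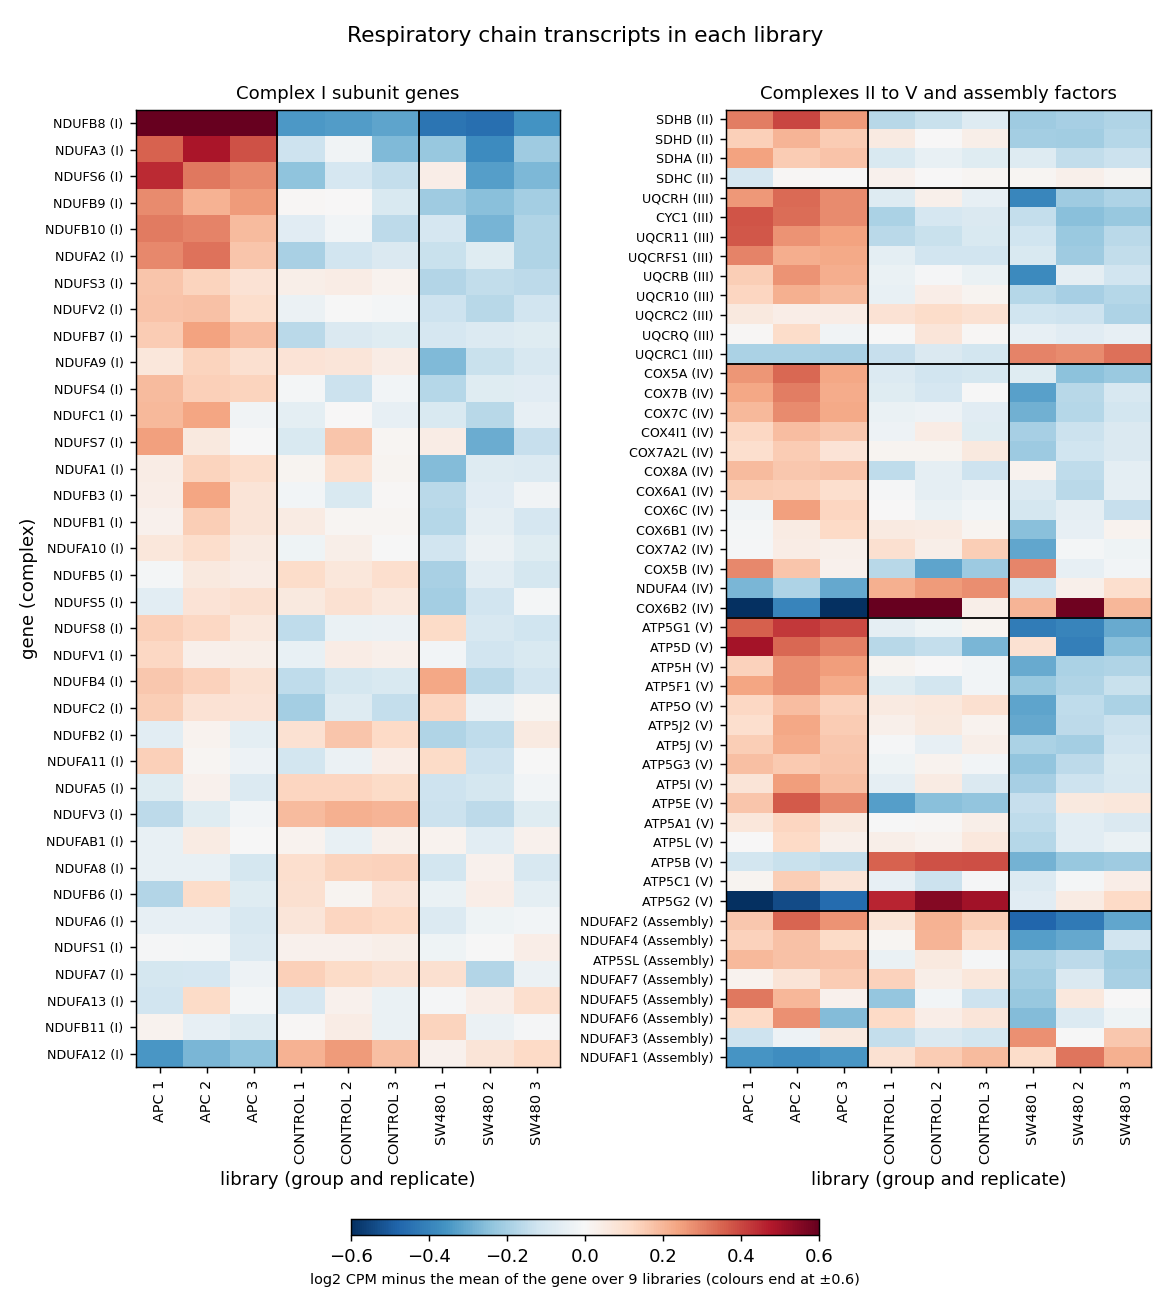
Log2 CPM of the tested genes in each of the 9 libraries (columns, by group and replicate) minus that gene's mean over the libraries, with genes in rows by complex; red is above and blue below the mean, and colours end at ±0.6. COX7B2 and 1 complex I gene are left out. Most rows are red in the APC columns, and NDUFA12, UQCRC1, NDUFA4, COX6B2, ATP5G2 and NDUFAF1 are blue there.

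Promoter sequence was examined because many of the genes moved together. RefSeq promoter windows (GRCh38.p14, 250 bases before to 50 after the annotated start) were found for 75 members. Each was searched on both strands for 3 motifs of factors known to act at respiratory genes: GCGCANGCG for NRF1, CCGGAAGT for the ETS factors that include GABPA, and ANATGGCGG for YY1. The NRF1 letters were in 23 of 75 members (30.7%), against 9.02% of 27305 genes with a window. Those genes were not limited to the genes tested here, so these shares do not compare the members with other expressed genes. The ETS letters were in 11 (14.7%), against 4.95% of genes, and the YY1 letters in 16 (21.3%), against 3.31%. These shares depend on the letters searched: with 1 more base, a C at the 3′ end for NRF1 and an A at the 5′ end for YY1, they were 16 members (21.3%) against 6.98% of genes, and 15 (20%) against 2.57%. Matches to different motifs overlapped in 0 windows, 38 members held at least 1 motif and 37 held none. Members with the NRF1 letters were higher in APC than in CONTROL in 13 of 23 cases and lower in 5. For the ETS letters these numbers were 7 and 0 of 11, and for the YY1 letters 11 and 2 of 16. For NRF1 this is 56.5% higher and 21.7% lower, near the shares of all members tested (51.6% and 14.3%). For ETS it is 63.6% and 0%, and for YY1 68.8% and 12.5%, on 11 and 16 members. Over all genes the shares were 34.8% and 35.4%. Windows are shown for the complex I genes with the largest rise and fall (NDUFB8 and NDUFA12) and for the complex III gene called lower in APC (UQCRC1). UQCRC1 was lower than SW480 in both derived lines, and its small difference in APC against CONTROL often lost its call, as given below. Windows of a complex II and a complex III gene that rose and hold NRF1 and ETS letters (SDHD and UQCR11) are shown too. Each is written 5′ to 3′ on the strand of the gene, with motif matches in capitals: NDUFB8 at chr10:100529822-100530121, minus strand; NDUFA12 at chr12:95003648-95003947, minus strand; SDHD at chr11:112086623-112086922, plus strand; UQCRC1 at chr3:48609597-48609896, minus strand; and UQCR11 at chr19:1605413-1605712, minus strand.
NDUFB8: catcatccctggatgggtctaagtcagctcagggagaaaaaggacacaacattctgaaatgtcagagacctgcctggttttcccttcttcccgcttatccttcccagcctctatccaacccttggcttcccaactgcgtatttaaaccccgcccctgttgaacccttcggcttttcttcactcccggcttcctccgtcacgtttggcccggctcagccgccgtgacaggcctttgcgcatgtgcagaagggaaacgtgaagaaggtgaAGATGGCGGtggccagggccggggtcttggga
NDUFA12: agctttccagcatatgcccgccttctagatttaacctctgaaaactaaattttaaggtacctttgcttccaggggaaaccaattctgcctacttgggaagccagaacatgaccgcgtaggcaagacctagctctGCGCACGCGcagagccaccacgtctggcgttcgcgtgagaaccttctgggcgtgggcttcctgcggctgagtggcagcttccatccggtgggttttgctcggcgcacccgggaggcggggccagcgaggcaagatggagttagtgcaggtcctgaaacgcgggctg
SDHD: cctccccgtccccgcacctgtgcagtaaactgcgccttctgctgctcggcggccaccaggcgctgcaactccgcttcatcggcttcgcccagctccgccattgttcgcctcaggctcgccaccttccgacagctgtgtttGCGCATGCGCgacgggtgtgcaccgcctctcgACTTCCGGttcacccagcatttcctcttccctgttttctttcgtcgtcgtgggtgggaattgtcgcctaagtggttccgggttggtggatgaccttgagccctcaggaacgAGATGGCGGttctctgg
UQCRC1: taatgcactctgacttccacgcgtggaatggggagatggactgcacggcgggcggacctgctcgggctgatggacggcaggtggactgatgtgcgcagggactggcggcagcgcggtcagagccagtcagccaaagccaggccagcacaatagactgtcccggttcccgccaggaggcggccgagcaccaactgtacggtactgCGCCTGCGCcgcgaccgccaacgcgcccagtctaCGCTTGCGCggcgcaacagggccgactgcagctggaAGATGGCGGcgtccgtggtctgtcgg
UQCR11: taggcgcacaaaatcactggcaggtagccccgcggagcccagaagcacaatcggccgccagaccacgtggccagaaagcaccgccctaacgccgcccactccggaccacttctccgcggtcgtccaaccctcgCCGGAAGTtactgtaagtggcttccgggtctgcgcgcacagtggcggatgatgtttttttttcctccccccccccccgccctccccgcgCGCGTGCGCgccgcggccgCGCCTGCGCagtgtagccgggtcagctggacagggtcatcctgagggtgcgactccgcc
NDUFB8 has 2 RefSeq windows, and the 1 shown is the one with a match. It holds a YY1 match that begins 18 bases after the start. NDUFA12 holds an NRF1 match 116 bases before it. SDHD holds an NRF1 match on either strand at 110 and 109 bases and an ETS match at 78 bases before the start, and a YY1 match 33 bases after it. UQCRC1 has NRF1 matches 46 and 12 bases before the start and a YY1 match 24 bases after it. UQCR11 has NRF1 matches at 28 and 9 bases and an ETS match at 117 bases before the start. Genes that rose and genes that fell both hold the letters, and a match is a description of sequence, not a binding site.

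Complex I, the NADH dehydrogenase, had 15 of 37 subunit genes higher and 7 lower in APC than in CONTROL. The 40.5% that were higher is near the 34.8% of all genes, and the 18.9% that were lower is below the 35.4% of all genes. It had 22 higher and 1 lower in APC against SW480, and 15 higher and 1 lower in CONTROL against SW480. In APC against SW480 this is 59.5% higher and 2.70% lower, against 35.6% and 36.9% of all genes. In CONTROL against SW480 it is 40.5% and 2.70%, against 25.3% and 24.7%. The largest rise was in NDUFB8, an accessory subunit of the membrane arm. It had 84.7, 77.6 and 73.6 CPM in the APC libraries, 36.8, 37.04 and 37.6 CPM in the CONTROL libraries and 34.5, 34.1 and 36.5 CPM in the SW480 libraries. The APC libraries lay well above the other 6, which all fell between 34.1 and 37.6 CPM. The log2 fold change was 1.08 ± 0.05 against CONTROL (SE, adjusted p = 7.0e-19) and 1.17 ± 0.05 against SW480 (adjusted p = 9.0e-20), a 2.12-fold and a 2.25-fold difference. NDUFA3, also of the membrane arm, had 42.99, 47.3 and 43.9 CPM in the APC libraries, 30.9, 33.2 and 28.005 CPM in the CONTROL libraries and 28.7, 25.9 and 29.002 CPM in the SW480 libraries, with log2 fold changes of 0.55 ± 0.06 and 0.68 ± 0.06. CONTROL and SW480 did not pass the threshold for NDUFA3 (log2 difference 0.14), except without CONTROL replicate 3, where it was 0.20.

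Against this direction, NDUFA12, an accessory subunit of the arm that faces the matrix, was lower in APC cells, with 77.96, 82.2 and 84.2 CPM in the APC libraries, 115, 118 and 113 CPM in the CONTROL libraries and 101, 105 and 108 CPM in the SW480 libraries. All APC libraries lay below all 6 others, and CONTROL lay above SW480. Its log2 fold changes were -0.50 ± 0.04 in APC against CONTROL (adjusted p = 2.8e-12), -0.36 ± 0.04 in APC against SW480 (adjusted p = 5.1e-09) and 0.14 ± 0.04 in CONTROL against SW480. NDUFV3, an accessory subunit of the NADH-oxidising module, had 42.8, 45.4 and 47.3 CPM in the APC libraries, 54.6, 55.3 and 55.02 CPM in the CONTROL libraries and 43.6, 42.8 and 45.4 CPM in the SW480 libraries. Here CONTROL stood above both other groups, which overlapped (-0.28 in APC against CONTROL, 0.04 in APC against SW480 and 0.32 in CONTROL against SW480). NDUFA5, NDUFA6, NDUFA7, NDUFA8 and NDUFB2 were the other complex I genes lower in APC than in CONTROL, by -0.16 to -0.19. None of these 5 passed the threshold in APC against SW480, where the values ran from -0.05 to 0.05, but NDUFB2 was called at 0.13 without SW480 replicate 3. All 5 were higher in CONTROL than in SW480. The NDUFA7 call in CONTROL against SW480 (adjusted p = 0.045) was lost without SW480 replicate 2, at a log2 difference of 0.08, without each of 6 other libraries, and at 0.11 to 0.15 in 7 of the other settings tried, DESeq2 among them.

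The core subunits, which carry the redox centres and the quinone site, moved little. Of 7 nuclear core genes, 3 were higher in APC than in CONTROL and 0 lower, and 6 were higher in APC than in SW480. The shares of all genes are those given for complex I. NDUFV1, the FMN-binding subunit that accepts electrons from NADH, had 193, 181 and 182 CPM in the APC libraries, 172, 183 and 181 CPM in the CONTROL libraries and 176, 164 and 167 CPM in the SW480 libraries. APC and CONTROL overlapped, and APC lay above SW480 by 0.14 ± 0.04 (adjusted p = 0.0027). CONTROL against SW480 was not called for NDUFV1, and was called at 0.11 without CONTROL replicate 1 or without SW480 replicate 1. NDUFS1, the largest iron-sulphur subunit, had 169, 168 and 160.2 CPM in the APC libraries, 172, 173 and 173 CPM in the CONTROL libraries and 166, 169 and 174 CPM in the SW480 libraries. SW480 overlapped both derived lines and APC lay just under CONTROL without passing the threshold; the 95% interval of the APC against CONTROL difference was -0.13 to 0.01. NDUFS1 was not called in APC against SW480 (-0.04), but was called lower at -0.08 when libraries were scaled by total counts only.

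In CONTROL against SW480, NDUFA9, an accessory subunit near the junction of the arms, had 165, 172 and 168 CPM in the APC libraries, 166, 165 and 162 CPM in the CONTROL libraries and 131, 143 and 147 CPM in the SW480 libraries. APC and CONTROL overlapped and both lay above SW480, by 0.26 ± 0.04 for APC and 0.23 ± 0.04 for CONTROL. NDUFC2, a membrane-arm subunit, had 119, 115 and 114 CPM in the APC libraries, 93.8, 102 and 97.8 CPM in the CONTROL libraries and 118, 105 and 109 CPM in the SW480 libraries. It was the 1 complex I gene lower in CONTROL than in SW480 (-0.18 ± 0.04), and it was higher in APC than in CONTROL (0.25 ± 0.05). APC against SW480 was not called for NDUFC2 (0.07), but was at 0.12 without SW480 replicate 1. The read-through transcript NDUFC2-KCTD14 had 95.5% of the total count of NDUFC2, so the counting assigned largely the same reads to both names.

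Complex II, succinate dehydrogenase, is built from 4 nuclear subunits, and 3 of the 4 genes were higher in APC than in either other group. Over all genes, 34.8% were higher in APC than in CONTROL and 35.6% higher in APC than in SW480. SDHB, the iron-sulphur subunit, had 143, 153 and 138 CPM in the APC libraries, 103, 106 and 109.9 CPM in the CONTROL libraries and 99.9, 101 and 102 CPM in the SW480 libraries. The APC libraries lay above the other 6, with log2 fold changes of 0.45 ± 0.04 against CONTROL (adjusted p = 1.9e-11) and 0.52 ± 0.04 against SW480. SDHA, the flavoprotein that oxidises succinate, had 275, 259 and 263 CPM in the APC libraries, 219, 227 and 222 CPM in the CONTROL libraries and 221, 211 and 213 CPM in the SW480 libraries, again with APC above the rest (0.26 ± 0.04 against CONTROL and 0.31 ± 0.04 against SW480). SDHD, a membrane anchor whose promoter window is printed above, had 176, 183 and 177 CPM in the APC libraries, 165, 159 and 163 CPM in the CONTROL libraries and 138, 138 and 141 CPM in the SW480 libraries. The SDHD groups did not overlap and stood in the order APC, CONTROL, SW480, with 0.14 ± 0.04 in APC against CONTROL, 0.36 ± 0.04 in APC against SW480 and 0.23 ± 0.04 in CONTROL against SW480. SDHC, the other anchor, was not called in any comparison, with log2 values of -0.04, -0.05 and -0.004; its 95% interval in APC against CONTROL was -0.12 to 0.03. SDHC was called lower in APC than in SW480, at -0.09, when libraries were scaled by total counts only.

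Complex III, which passes electrons to cytochrome c, had 6 of 9 genes higher and 1 lower in APC than in CONTROL, and 8 higher and 1 lower in APC against SW480. The 8 include UQCRQ at 0.09 (edgeR adjusted p = 0.049). That UQCRQ call was lost without APC replicate 2, CONTROL replicate 1 or any 1 SW480 library. It was also lost in several other settings, DESeq2, summed transcripts and the limma fits on RPKM among them. In CONTROL against SW480, 3 were higher and 1 lower. As shares, 66.7% were higher in APC against CONTROL, 88.9% in APC against SW480 and 33.3% in CONTROL against SW480. Over all genes these were 34.8%, 35.6% and 25.3%. The share lower was 11.1% in each, against 35.4%, 36.9% and 24.7% of all genes. CYC1, the haem-bearing cytochrome c1, had 215, 209 and 202 CPM in the APC libraries, 145, 154 and 156 CPM in the CONTROL libraries and 149.9, 139 and 141 CPM in the SW480 libraries. The APC libraries lay above the others, by 0.46 ± 0.04 against CONTROL (adjusted p = 3.3e-12) and 0.54 ± 0.04 against SW480. CONTROL against SW480 was not called for CYC1 (0.08), and was called at 0.11 without CONTROL replicate 1 or without SW480 replicate 1. UQCRFS1, the Rieske iron-sulphur protein, had 150.04, 142 and 143 CPM in the APC libraries, 117, 112 and 112 CPM in the CONTROL libraries and 114, 105 and 109.99 CPM in the SW480 libraries (0.35 ± 0.04 in APC against CONTROL). UQCR11, a small accessory subunit, had 111, 103 and 101 CPM in the APC libraries, 76.6, 77.95 and 80.4 CPM in the CONTROL libraries and 78.9, 73.4 and 76.6 CPM in the SW480 libraries, with log2 fold changes of 0.42 ± 0.05 and 0.46 ± 0.04. For both genes every APC library was above the 6 others, which overlapped between CONTROL and SW480.

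UQCRH, the hinge protein that helps cytochrome c1 meet cytochrome c, had 192, 203 and 195 CPM in the APC libraries, 152, 164 and 155 CPM in the CONTROL libraries and 122, 138 and 141 CPM in the SW480 libraries. Its groups stood apart in the order APC, CONTROL, SW480, with 0.33 ± 0.04 in APC against CONTROL, 0.56 ± 0.04 in APC against SW480 and 0.23 ± 0.05 in CONTROL against SW480. The core proteins, which carry no redox centre, went different ways. UQCRC1 had 249.99, 249.8 and 249.7 CPM in the APC libraries, 259, 269 and 264 CPM in the CONTROL libraries and 351, 347 and 359 CPM in the SW480 libraries. SW480 stood above both derived lines, by a log2 difference of -0.50 ± 0.04 in APC against SW480 (adjusted p = 1.6e-14) and -0.42 ± 0.04 in CONTROL against SW480 (adjusted p = 7.6e-12). APC against CONTROL was called lower for UQCRC1 at -0.08 (adjusted p = 0.046), and the call was lost, at -0.06 to -0.09, on leaving out any APC library, any CONTROL library or SW480 replicate 2. It was also lost, at -0.07 to -0.08, with DESeq2, RLE size factors, summed transcripts, no filter or the replicate block. UQCRC2 had 191, 188 and 189 CPM in the APC libraries, 194, 198 and 195 CPM in the CONTROL libraries and 169, 168 and 161 CPM in the SW480 libraries. APC and CONTROL differed by -0.05, which did not pass the threshold, and both were higher than SW480, by 0.19 ± 0.04 and 0.24 ± 0.04.

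**Figure D3:**
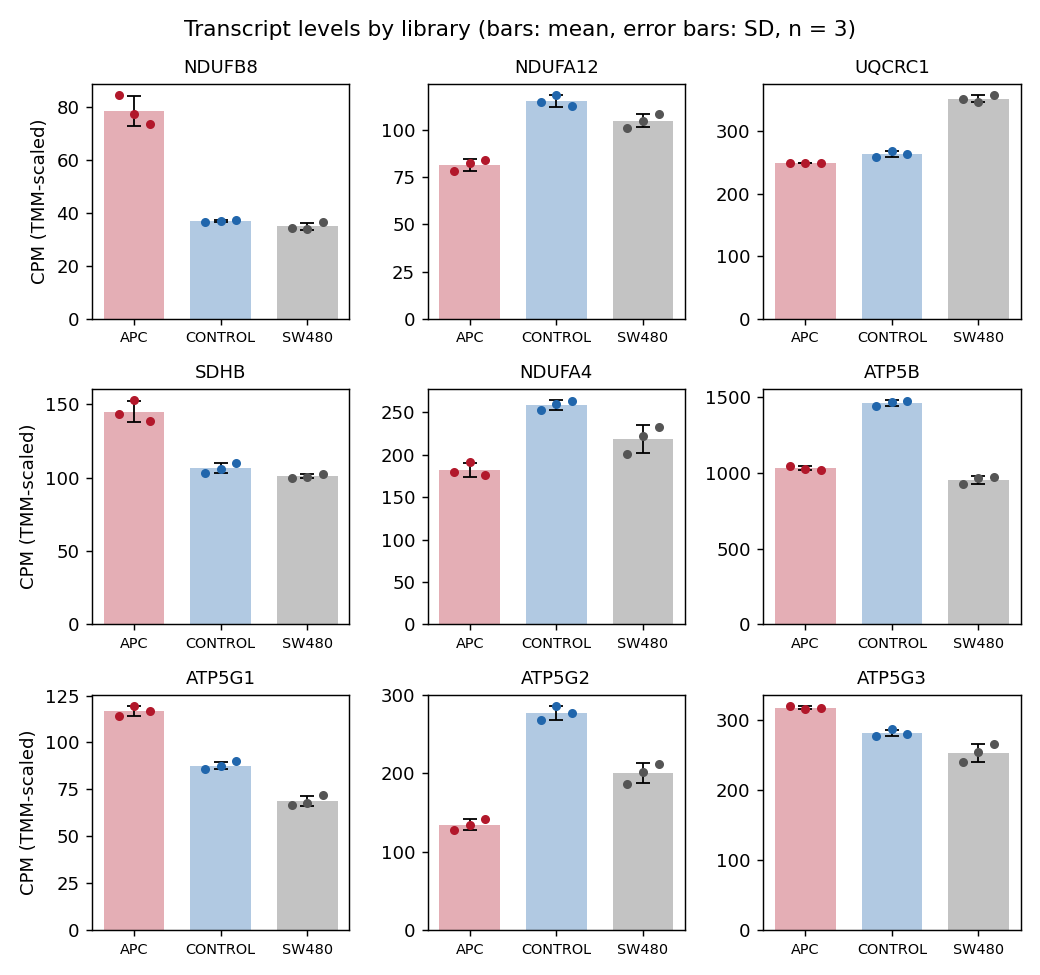
CPM with TMM-scaled library sizes (y axes, from 0) of 9 genes in APC, CONTROL and SW480 cells (x axes); points are libraries, bars means and error bars SD (n = 3). NDUFB8, SDHB, ATP5G1 and ATP5G3 are highest in APC, NDUFA12, NDUFA4 and ATP5G2 are lowest there, ATP5B is highest in CONTROL and UQCRC1 is highest in SW480.

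Complex IV, cytochrome c oxidase, takes its catalytic core from mitochondrial DNA, and the nuclear subunits surround it. Of 14 tested genes, 9 were higher and 2 lower in APC than in CONTROL, 10 and 2 in APC against SW480, and 6 and 1 in CONTROL against SW480. The 9 and the 10 include COX7B2, which passed the filter only through its APC counts. As shares, 64.3% were higher in APC against CONTROL, 71.4% in APC against SW480 and 42.9% in CONTROL against SW480. Over all genes these were 34.8%, 35.6% and 25.3%. The shares lower were 14.3%, 14.3% and 7.14%, against 35.4%, 36.9% and 24.7% of all genes. COX5A had 155, 163 and 151 CPM in the APC libraries, 122, 119 and 119.9 CPM in the CONTROL libraries and 122, 108 and 110.4 CPM in the SW480 libraries, with all APC libraries above the rest (0.38 ± 0.04 against CONTROL, adjusted p = 1.7e-09, and 0.46 ± 0.04 against SW480). COX5A was not called in CONTROL against SW480 (0.08), except without SW480 replicate 1 (0.13). COX7B had 184, 193 and 182 CPM in the APC libraries, 148, 146 and 156 CPM in the CONTROL libraries and 125, 139 and 146 CPM in the SW480 libraries, with APC above the rest and a slight overlap of CONTROL and SW480 (0.31 ± 0.05 in APC against CONTROL and 0.45 ± 0.05 in APC against SW480). The COX7B difference of 0.14 in CONTROL against SW480 was no longer called without CONTROL replicate 3 (0.10) or SW480 replicate 1 (0.07), with total counts only (0.10) or in the limma fits on RPKM (0.12). COX5B had 159.8, 147 and 133 CPM in the APC libraries, 117, 105 and 113 CPM in the CONTROL libraries and 160.4, 127 and 129 CPM in the SW480 libraries. SW480 replicate 1 was as high as the highest APC library, and the other SW480 libraries lay between CONTROL and APC. COX5B was higher in APC than in CONTROL (0.40 ± 0.11, adjusted p = 0.015). APC against SW480 was not called for COX5B (0.08), but was without SW480 replicate 1, at 0.20. The COX5B difference of -0.32 in CONTROL against SW480 was -0.20 without SW480 replicate 1, and its call was lost without any 1 CONTROL library (-0.28 to -0.35) without APC replicate 2 (-0.32) or with no filter on low counts (-0.31).

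NDUFA4, first assigned to complex I and since placed in complex IV, had 180.000, 192 and 176 CPM in the APC libraries, 252, 259 and 264 CPM in the CONTROL libraries and 200.4, 222 and 233 CPM in the SW480 libraries. Every APC library was below the 6 others and every CONTROL library above them, with -0.50 ± 0.04 in APC against CONTROL (adjusted p = 6.6e-11), -0.26 ± 0.05 in APC against SW480 (adjusted p = 1.0e-05) and 0.24 ± 0.04 in CONTROL against SW480. NDUFA4L2, its paralog known as a target of hypoxia-inducible factor, was under the filter, with 1, 1 and 2 counts in the APC libraries, 5, 8 and 7 in the CONTROL libraries and 1, 3 and 3 in the SW480 libraries.

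Subunits with tissue-specific or inducible partners were expressed from the broadly used genes. COX4I1 had 186, 194 and 192 CPM in the APC libraries, 167, 177 and 163 CPM in the CONTROL libraries and 149, 157 and 161 CPM in the SW480 libraries, with APC above the other 6 (0.18 ± 0.04 against CONTROL and 0.29 ± 0.04 against SW480), and CONTROL above SW480 by 0.12, which was not called without CONTROL replicate 2 or SW480 replicate 1 (0.09 each), with total counts only (0.08) or in the limma fits on RPKM (0.10). COX4I2, the isoform of lung and low oxygen, had 0 counts in all 9 libraries. COX6A1 had 177, 177 and 171 CPM in the APC libraries, 159, 154 and 156 CPM in the CONTROL libraries and 151, 143 and 154 CPM in the SW480 libraries (0.16 ± 0.04 in APC against CONTROL and 0.23 ± 0.04 in APC against SW480). COX8A had 232, 228 and 229 CPM in the APC libraries, 183, 196 and 187 CPM in the CONTROL libraries and 206, 183 and 196 CPM in the SW480 libraries (0.28 ± 0.04 in APC against CONTROL and 0.24 ± 0.04 in APC against SW480). COX6A2 and COX8C, the partners of these genes in muscle and testis, appear only in the RPKM table, where both are listed at 0.

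COX6B1 had 190.4, 199 and 209 CPM in the APC libraries, 199.6, 199 and 194 CPM in the CONTROL libraries and 161, 185 and 195 CPM in the SW480 libraries. The groups overlapped, and the call of 0.14 in APC against SW480 was lost without APC replicate 2 (0.16), APC replicate 3 (0.12) or SW480 replicate 1 (0.07), with total counts only (0.10) and in the limma fits on RPKM (0.11 and 0.12). In CONTROL against SW480, COX6B1 was not called (0.13), but was without APC replicate 1 or APC replicate 3 (0.13 each) or SW480 replicate 3 (0.19), with DESeq2 or no filter (0.14 each) and with the replicate block (0.13). Its testis partner COX6B2 was scarce, with 5, 8 and 4 counts in the APC libraries, 22, 19 and 12 in the CONTROL libraries and 13, 17 and 13 in the SW480 libraries. The log2 fold change of COX6B2 was -1.58 ± 0.39 in APC against CONTROL (adjusted p = 5.1e-04) and -1.23 ± 0.40 in APC against SW480 (adjusted p = 0.0072), all APC libraries being below the others. On log2(RPKM + 1) these were -0.38 and -0.27, since a pseudocount shrinks differences between low values. COX7B2, another gene known from testis, had 32, 36 and 41 counts in the APC libraries, 0, 0 and 0 in the CONTROL libraries and 0, 0 and 0 in the SW480 libraries. Against a floor of 3 counts per library, it was at least 12.4-fold higher in APC than in CONTROL and at least 12.9-fold higher than in SW480. COX7A2 had 92.5, 95.9 and 94.9 CPM in the APC libraries, 99.2, 95.2 and 103 CPM in the CONTROL libraries and 74.8, 92.2 and 91.1 CPM in the SW480 libraries. CONTROL was above SW480 for COX7A2 by 0.21 ± 0.06, or 0.11 without SW480 replicate 1. APC against SW480 was not called for COX7A2 (0.13), but was without CONTROL replicate 3 (0.14), SW480 replicate 2 (0.19) or SW480 replicate 3 (0.18), with DESeq2 or no filter (0.15 each) and with RLE size factors or the replicate block (0.14 each). COX7A1, its heart and muscle isoform, had 1, 0 and 1 counts in the APC libraries, 0, 1 and 1 in the CONTROL libraries and 2, 3 and 0 in the SW480 libraries. COX7A2L, which helps join complexes III and IV into supercomplexes, had 99.02, 102 and 97.6 CPM in the APC libraries, 93.4, 93.2 and 95.9 CPM in the CONTROL libraries and 79.2, 84.9 and 86.7 CPM in the SW480 libraries, in the order APC, CONTROL, SW480 with no overlap; APC against CONTROL was not called (0.08), and APC and CONTROL exceeded SW480 by 0.25 ± 0.04 and 0.17 ± 0.04.

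Complex V, the ATP synthase, had 10 of 15 tested genes higher and 2 lower in APC than in CONTROL, 14 and 1 in APC against SW480, and 11 and 1 in CONTROL against SW480. As shares, 66.7%, 93.3% and 73.3% were higher in these comparisons, against 34.8%, 35.6% and 25.3% of all genes. The shares lower were 13.3%, 6.67% and 6.67%, against 35.4%, 36.9% and 24.7%. In CONTROL against SW480, the higher calls of ATP5A1, ATP5F1 and ATP5L were lost without SW480 replicate 1, at 0.09 each. The catalytic head did not move as a unit. ATP5B, the catalytic beta subunit, had 1044, 1027 and 1016 CPM in the APC libraries, 1439, 1467 and 1472 CPM in the CONTROL libraries and 925, 962 and 972 CPM in the SW480 libraries. CONTROL stood far above both other groups, with -0.50 ± 0.04 in APC against CONTROL (adjusted p = 2.5e-14) and 0.61 ± 0.04 in CONTROL against SW480 (adjusted p = 1.2e-15). APC exceeded SW480 by 0.11 (adjusted p = 0.007), which became 0.07 and was not called when libraries were scaled by total counts only. ATP5A1, the alpha subunit, had 309, 323 and 308 CPM in the APC libraries, 295, 297 and 303 CPM in the CONTROL libraries and 266, 283 and 279 CPM in the SW480 libraries. ATP5A1 was not called in APC against CONTROL (0.07), but was called at 0.10 without APC replicate 3 and at 0.07 in a fit of those 6 libraries alone. It was higher in APC than in SW480 (0.18 ± 0.04). In CONTROL against SW480 its difference of 0.11 was not called without CONTROL replicate 3 (0.10), without SW480 replicate 1 (0.09) or with total counts only (0.08).

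The small subunits ATP5D and ATP5E rose more than ATP5A1. ATP5C1 had 0.14 ± 0.04 in APC against CONTROL and 0.10 ± 0.04 in APC against SW480. The second of these ATP5C1 calls was lost without SW480 replicate 1 (0.07) and in other settings. ATP5D, the delta subunit, had 85.1, 76.5 and 74.1 CPM in the APC libraries, 53.6, 54.5 and 49.7 CPM in the CONTROL libraries and 64.2, 45.3 and 50.6 CPM in the SW480 libraries (0.58 ± 0.13 against CONTROL, adjusted p = 0.0041, and 0.56 ± 0.12 against SW480, adjusted p = 0.0047). Its SW480 replicate 1 was above all CONTROL libraries, and every APC library was above all others. ATP5E, the epsilon subunit, had 333, 382 and 362 CPM in the APC libraries, 236, 249 and 252 CPM in the CONTROL libraries and 269, 309 and 310.4 CPM in the SW480 libraries. Its APC libraries were the highest and its CONTROL libraries the lowest, with 0.55 ± 0.06 in APC against CONTROL (adjusted p = 3.6e-07), 0.28 ± 0.06 in APC against SW480 and -0.27 ± 0.06 in CONTROL against SW480. All 4 peripheral stalk genes, ATP5F1, ATP5H, ATP5J and ATP5O, had every APC library above the 6 others, and their log2 fold changes in APC against SW480 ran from 0.35 to 0.45. Among the membrane subunits, ATP5J2 had 329, 359 and 340.3 CPM in the APC libraries, 313, 319.7 and 311 CPM in the CONTROL libraries and 248, 275 and 279.98 CPM in the SW480 libraries (0.12 ± 0.04 in APC against CONTROL, 0.36 ± 0.04 in APC against SW480). The ATP5J2 call in APC against CONTROL was lost in the limma fits on RPKM, at 0.11. ATP5L had 213, 231 and 217 CPM in the APC libraries, 218, 216 and 223 CPM in the CONTROL libraries and 189, 204 and 207 CPM in the SW480 libraries, overlapping between APC and CONTROL (0.01, not called), and higher than SW480 by 0.14 ± 0.04 in APC and 0.13 ± 0.04 in CONTROL, the CONTROL call being lost without SW480 replicate 1 (0.09) and in the limma fits on RPKM (0.11). Its copy ATP5L2 had 0, 1 and 0 counts in the APC libraries, 0, 0 and 0 in the CONTROL libraries and 0, 1 and 1 in the SW480 libraries.

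The rotating c ring is made from 3 genes, ATP5G1, ATP5G2 and ATP5G3, whose mature proteins are identical and whose import sequences differ. These genes moved in opposite directions in APC cells. ATP5G2 fell, with 127, 134 and 142 CPM in the APC libraries, 268, 286 and 277 CPM in the CONTROL libraries and 186, 202 and 212 CPM in the SW480 libraries. All APC libraries lay below the 6 others and CONTROL lay above SW480, with -1.04 ± 0.04 in APC against CONTROL (adjusted p = 1.3e-18), -0.57 ± 0.05 in APC against SW480 (adjusted p = 2.4e-12) and 0.47 ± 0.04 in CONTROL against SW480. ATP5G1 had 114, 119 and 117 CPM in the APC libraries, 85.7, 87.4 and 89.8 CPM in the CONTROL libraries and 66.5, 67.7 and 72.02 CPM in the SW480 libraries, with 0.41 ± 0.04 in APC against CONTROL (adjusted p = 1.8e-10), 0.77 ± 0.04 in APC against SW480 and 0.35 ± 0.04 in CONTROL against SW480. ATP5G3 had 320.2, 315 and 318 CPM in the APC libraries, 278, 287 and 279.99 CPM in the CONTROL libraries and 240.1, 254 and 265 CPM in the SW480 libraries, with 0.18 ± 0.04, 0.33 ± 0.04 and 0.15 ± 0.04 in the same comparisons. For both genes the groups stood in the order APC, CONTROL, SW480 without overlap.

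On the per-length scale, the 3 c ring genes summed to 395 ± 13.3 RPKM in APC, 485 ± 9.84 in CONTROL and 377 ± 18.5 in SW480 (SD, n = 3 each). ATP5G2 made up 33.6 ± 1.07% of that sum in APC, 56.8 ± 0.599% in CONTROL and 53.5 ± 0.654% in SW480. ATP5G1 made up 45.0 ± 0.713% in APC, 27.6 ± 0.606% in CONTROL and 28.3 ± 0.599% in SW480. ATP5G1 was thus the leading c ring transcript per length in APC cells, and ATP5G2 in both other lines. The shares depend on which transcript length is used; with the shortest listed transcript of each gene, ATP5G2 took 32.0%, 54.8% and 51.4% in APC, CONTROL and SW480. Processed pseudogenes are common for these and other respiratory genes, and the counting rule for shared reads is not given in the sources used here, so such levels are uncertain.

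Assembly factors build the complexes without staying in them. Of the 8 found by name, 2 were higher and 1 lower in APC than in CONTROL, 5 and 2 in APC against SW480, and 4 and 1 in CONTROL against SW480. The 25% that were higher in APC than in CONTROL is below the 34.8% of all genes. In APC against SW480, 62.5% were higher and 25% lower, against 35.6% and 36.9% of all genes. In CONTROL against SW480, 50% were higher and 12.5% lower, against 25.3% and 24.7%. NDUFAF1, which builds membrane-arm intermediates of complex I, had 14.8, 14.6 and 14.8 CPM in the APC libraries, 20.1, 21.1 and 21.6 CPM in the CONTROL libraries and 20.4, 23.6 and 21.97 CPM in the SW480 libraries. Every APC library was below the other 6, with -0.50 ± 0.07 against CONTROL (adjusted p = 3.6e-07) and -0.58 ± 0.07 against SW480 (adjusted p = 2.1e-08). NDUFAF2, a late-acting complex I factor, had 37.7, 42.97 and 40.6 CPM in the APC libraries, 35.5, 38.9 and 37.3 CPM in the CONTROL libraries and 24.2, 25.1 and 27.1 CPM in the SW480 libraries. SW480 was lowest, with 0.66 ± 0.06 in APC against SW480 and 0.55 ± 0.06 in CONTROL against SW480. NDUFAF2 was not called in APC against CONTROL (0.12), except without APC replicate 1 (0.17) or CONTROL replicate 2 (0.15). NDUFAF4 had 34.5, 35.3 and 33.9 CPM in the APC libraries, 31.6, 36.1 and 33.6 CPM in the CONTROL libraries and 24.9, 25.3 and 28.9 CPM in the SW480 libraries, again lowest in SW480 (0.39 ± 0.06 in APC against SW480 and 0.35 ± 0.06 in CONTROL against SW480).

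ATP5SL, despite its name a factor for the distal membrane arm of complex I, had 85.9, 84.9 and 84.6 CPM in the APC libraries, 73.03, 78.2 and 74.7 CPM in the CONTROL libraries and 65.9, 67.3 and 64.99 CPM in the SW480 libraries, in the order APC, CONTROL, SW480 without overlap (0.18 ± 0.04 in APC against CONTROL and 0.37 ± 0.04 in APC against SW480). NDUFAF5, which modifies the core subunit NDUFS7, had 21.7, 20.01 and 17.7 CPM in the APC libraries, 14.8, 17.2 and 15.95 CPM in the CONTROL libraries and 14.9, 18.2 and 17.5 CPM in the SW480 libraries. It was higher in APC than in CONTROL (0.31 ± 0.09), and its call of 0.24 in APC against SW480 was lost without APC replicate 1 (0.17), without SW480 replicate 1 (0.15) or in the limma fits on RPKM (0.18 and 0.20). NDUFAF3 had 34.4, 36.6 and 38.9 CPM in the APC libraries, 33.9, 35.3 and 34.7 CPM in the CONTROL libraries and 45.2, 37.4 and 41.8 CPM in the SW480 libraries. It was lower than SW480 in CONTROL (-0.26 ± 0.06) and in APC (-0.18 ± 0.06), the call in APC being lost without APC replicate 1 (-0.13), without SW480 replicate 1 (-0.11) or with DESeq2 (-0.17). Among the names kept apart, the pseudogene UQCRBP1 had 0.42 in APC against CONTROL, a call lost without 5 of the 9 libraries in turn and in 5 other settings, and 0.82 ± 0.19 in APC against SW480. The read-through ATP5J2-PTCD1 had 96.1% of the total count of ATP5J2 and was higher in APC than in SW480 (0.26).

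Summed over subunit genes, complexes I to IV had their highest mean in APC and complex V in CONTROL. Complex I summed to 3299.5 ± 58.9 CPM in APC, 3127 ± 44.1 in CONTROL and 2941 ± 40.6 in SW480. Complex II summed to 709.8 ± 8.68, 615 ± 3.34 and 579 ± 4.63 CPM in the same order of groups. Complex III had 1464 ± 18.7 CPM in APC, against 1300.1 ± 23.2 in CONTROL and 1293 ± 11.02 in SW480. These 3 sums were highest in APC with no overlap, and for complex III the CONTROL and SW480 libraries overlapped. Complex IV summed to 1909.7 ± 37.5 CPM in APC, 1756 ± 3.19 in CONTROL and 1651 ± 45.0 in SW480. Complex V summed to 4023 ± 84.5 CPM in APC, 4209.6 ± 46.5 in CONTROL and 3450.5 ± 136 in SW480, so CONTROL and not APC was highest. Without ATP5B, the complex V sum was 2994 ± 91.2 in APC, 2750.2 ± 29.0 in CONTROL and 2498 ± 111 in SW480, with APC highest.

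**Figure D4:**
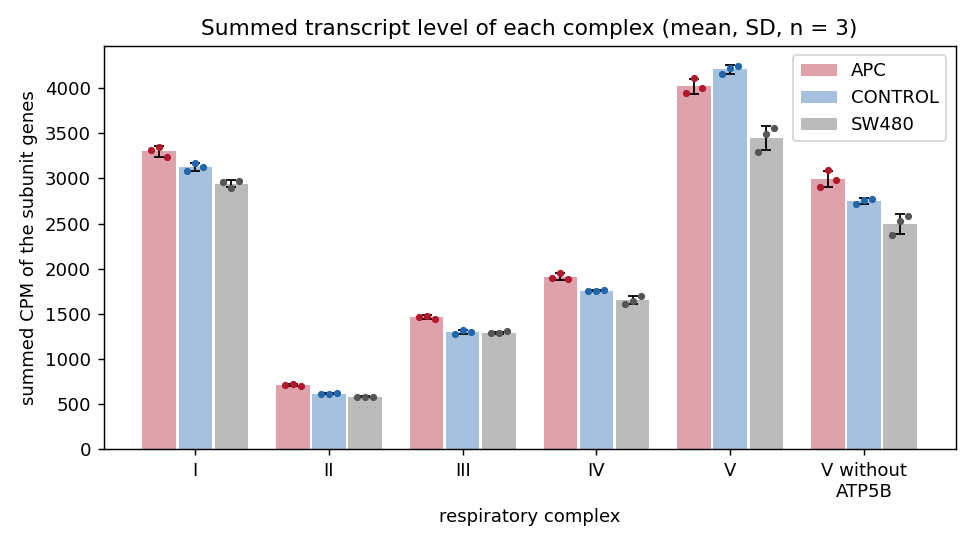
Summed CPM of the subunit genes (y axis, from 0) of each respiratory complex (x axis) in APC, CONTROL and SW480 cells; bars are means, error bars SD and points the 3 libraries of each group. APC is highest for complexes I to IV and for complex V without ATP5B, while CONTROL is highest for complex V with it.

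Per length, ATP5E, ATP5J2 and ATP5B were the 3 most abundant members in every group. ATP5E had 716 RPKM in APC, 493 in CONTROL and 603 in SW480. ATP5B had 488 RPKM in APC, 698 in CONTROL and 462 in SW480, and it had rank 1 in CONTROL, where ATP5E had rank 3. The median RPKM over complex I genes was 88.4 in APC, 80.2 in CONTROL and 77.1 in SW480, and over tested complex IV genes 190.1, 159 and 150.4. RPKM depends on the transcript chosen, and UQCRB, with a chosen transcript of 5109 bases, had the lowest level in complex III.

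Respiratory transcripts are short, and short transcripts in general were shifted slightly the same way. The members tested had a median length of 959 bases, against 2936 over all genes tested. Across all genes, the Spearman correlation of length with log2 fold change was -0.04 in APC against CONTROL, -0.07 in APC against SW480 and -0.05 in CONTROL against SW480. Among transcripts under 1000 bases, the median log2 fold change over 909 genes was 0.07, 0.12 and 0.08 in these comparisons, and over the 46 members of that length it was 0.17, 0.28 and 0.12. Among transcripts of 1000 to 2000 bases it was 0.02, 0.03 and 0.005 over 2981 genes, and 0.05, 0.15 and 0.11 over 27 members. The part of length in the members' shift was not tested.

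The regulators of respiratory genes, a list of transcription factors, coactivators and the mitochondrial transcription machinery, had 10 of 21 tested genes higher and 8 lower in APC than in CONTROL. In APC against SW480, 8 were higher and 7 lower, and in CONTROL against SW480, 9 and 3. Over all genes tested, 34.8% were higher and 35.4% lower in APC against CONTROL. These shares were 35.6% and 36.9% in APC against SW480, and 25.3% and 24.7% in CONTROL against SW480. ESRRA, the oestrogen-related receptor that activates respiratory promoters, had 116, 106 and 99.9 CPM in the APC libraries, 61.2, 64.99 and 63.4 CPM in the CONTROL libraries and 53.5, 47.5 and 54.7 CPM in the SW480 libraries (0.77 ± 0.05 in APC against CONTROL, adjusted p = 1.4e-13, and 1.05 ± 0.05 in APC against SW480). PPRC1, a coactivator of the PGC-1 family, had 120.2, 115 and 125 CPM in the APC libraries, 72.3, 79.7 and 73.6 CPM in the CONTROL libraries and 64.4, 69.2 and 70.2 CPM in the SW480 libraries (0.68 ± 0.05 and 0.82 ± 0.05 in the same comparisons). PPARGC1B, another of this family, had 19.5, 19.1 and 20.3 CPM in the APC libraries, 15.8, 12.8 and 15.02 CPM in the CONTROL libraries and 9.10, 10.1 and 10.96 CPM in the SW480 libraries (0.43 ± 0.08 and 0.97 ± 0.09). In all 3 genes every APC library was above the 6 others. PPARGC1A, the best-known member of the family, stayed under 1 CPM in every library and was called higher in APC than in CONTROL (1.30 ± 0.45) on those few counts. It was also called lower in CONTROL than in SW480 (-1.37 ± 0.44) and was not called in APC against SW480 (-0.07), so CONTROL was the group that stood apart.

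MYC, a growth regulator known to act on mitochondrial biogenesis and in colon a target of Wnt signalling, had 281, 283 and 286 CPM in the APC libraries, 144, 154 and 144 CPM in the CONTROL libraries and 121, 116 and 117 CPM in the SW480 libraries (0.94 ± 0.04 in APC against CONTROL, adjusted p = 1.4e-21, and 1.26 ± 0.04 in APC against SW480). TFAM, which packages and transcribes mitochondrial DNA, had 144, 155 and 154 CPM in the APC libraries, 126, 125 and 126 CPM in the CONTROL libraries and 107, 106 and 111 CPM in the SW480 libraries (0.26 ± 0.04 and 0.48 ± 0.04). POLRMT, the mitochondrial RNA polymerase, had 80.98, 65.5 and 68.6 CPM in the APC libraries, 48.5, 52.6 and 52.2 CPM in the CONTROL libraries and 56.3, 49.4 and 52.5 CPM in the SW480 libraries (0.49 ± 0.07 and 0.44 ± 0.07). APC was above the 6 others in these 3 genes as well. NRF1, the factor whose letters are in the windows above, had 20.9, 19.95 and 19.5 CPM in the APC libraries, 24.4, 27.5 and 25.8 CPM in the CONTROL libraries and 24.5, 24.8 and 26.7 CPM in the SW480 libraries and was lower in APC (-0.36 ± 0.07 against CONTROL and -0.33 ± 0.07 against SW480). GABPA was not called in any comparison (-0.05, 0.02 and 0.06), and its partner GABPB1 was lower in APC by -0.26 against CONTROL and -0.33 against SW480. YY1 was higher in APC than in CONTROL by 0.14, and was not called in APC against SW480 (-0.01). The lowest value in the list was that of PPARD, a nuclear receptor for fatty acids, with 33.9, 34.6 and 33.7 CPM in the APC libraries, 160.2, 163 and 150.4 CPM in the CONTROL libraries and 134, 133 and 131 CPM in the SW480 libraries (-2.21 ± 0.05 in APC against CONTROL and -1.96 ± 0.05 in APC against SW480). EPAS1, a hypoxia-inducible factor, was lower in APC by -0.53 against CONTROL and -0.38 against SW480, as were NFE2L1 (-0.35 and -0.43), the mitochondrial deacetylase SIRT3 (-0.35 and -0.31) and SIRT1 (-0.17 and -0.19). PPARA was higher in both (0.26 and 0.38). HIF1A was higher (0.22) and NFE2L2, the regulator of antioxidant genes, lower (-0.26) in APC against CONTROL, and neither was called in APC against SW480. The mitochondrial transcription factor TFB2M was called in APC against SW480 (0.20) and TFB1M in CONTROL against SW480 (0.19), each in that comparison alone, and ESRRG was under the filter.

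**Figure D5:**
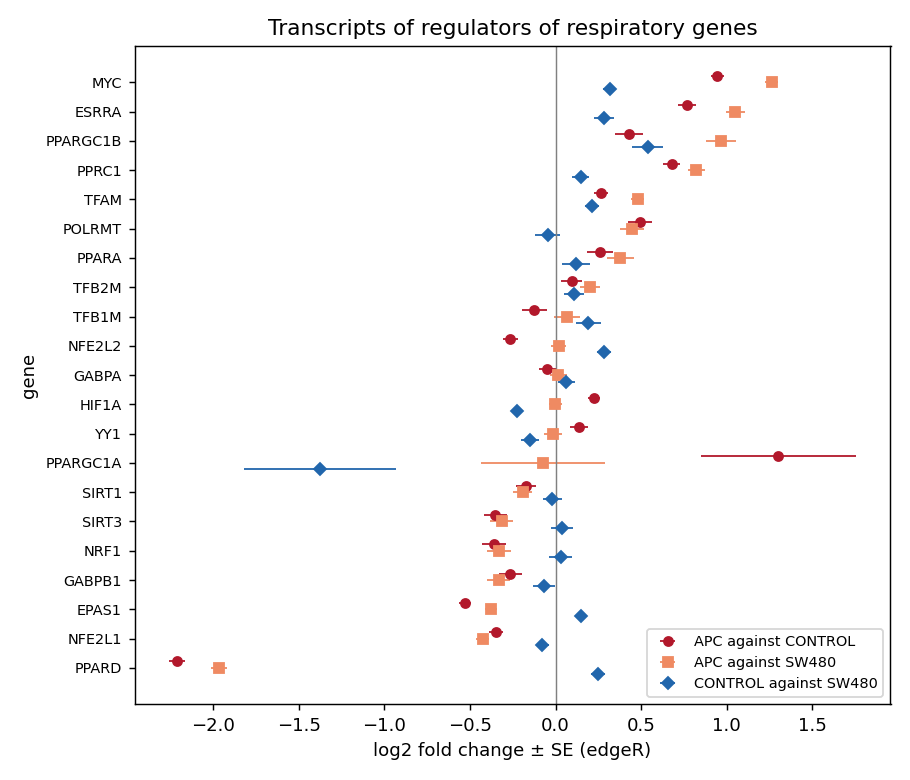
Log2 fold change ± SE (x axis, edgeR) of the 21 tested regulators of respiratory genes (y axis) in APC against CONTROL (circles), APC against SW480 (squares) and CONTROL against SW480 (diamonds). MYC, ESRRA, PPRC1 and PPARGC1B lie to the right and PPARD far to the left in both APC comparisons, while PPARGC1A, under 1 CPM, has wide errors.

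Other mitochondrial lists gave the following counts, in this paragraph and the next. The shares of all genes to set beside them were 34.8% higher and 35.4% lower in APC against CONTROL. They were 35.6% and 36.9% in APC against SW480, and 25.3% and 24.7% in CONTROL against SW480. Mitochondrial ribosomal proteins, which translate the subunits encoded in mitochondrial DNA, had 44 of 77 tested genes higher and 15 lower in APC than in CONTROL, 59 and 6 in APC against SW480, and 41 and 3 in CONTROL against SW480. Their median log2 fold changes were 0.16, 0.28 and 0.16. MRPS26 (1.02) and MRPL36 (0.83) were among those that rose in APC against CONTROL, and MRPS6 fell (-1.46). Assembly factors outside the naming rule had 22 of 44 higher and 12 lower in APC against CONTROL, 27 and 10 in APC against SW480, and 17 and 3 in CONTROL against SW480. COX15, which makes haem A for complex IV, rose by 0.87 ± 0.04 against CONTROL and 1.04 ± 0.04 against SW480, and COX20 fell by 0.61 and 0.65 on the log2 scale.

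A list of other mitochondrial proteins, such as import receptors, porins and chaperones, had 11 of 23 genes higher and 3 lower in APC against CONTROL, 18 and 2 in APC against SW480, and 18 and 1 in CONTROL against SW480. TOMM40, the import channel, rose by 0.52 against CONTROL and 0.72 against SW480, and the ADP/ATP carrier SLC25A4 had -0.94 and -0.53. Mitochondrial translation factors had 4 of 9 higher and 3 lower in APC against CONTROL, 5 and 1 in APC against SW480, and 5 and 1 in CONTROL against SW480. Citric acid cycle genes had 6 of 13 higher and 4 lower in APC against CONTROL, 9 and 2 in APC against SW480, and 8 and 3 in CONTROL against SW480. Citrate synthase, CS, was lower in APC than in CONTROL (-0.60) and higher in CONTROL than in SW480 (0.58), and SUCLA2, of succinyl-CoA ligase, rose by 0.70 and 0.56 in APC against CONTROL and SW480. Pyruvate entry genes had 6 of 12 higher and 6 lower in APC against CONTROL, 5 and 4 in APC against SW480, and 5 and 3 in CONTROL against SW480. Of the pyruvate dehydrogenase phosphatases, PDP2 had 1.34 and 1.67 in APC against CONTROL and SW480, and PDP1 had -1.16 and -1.75. CYCS, cytochrome c itself, had 613, 659.8 and 637 CPM in the APC libraries, 731, 712 and 731 CPM in the CONTROL libraries and 494, 493 and 517 CPM in the SW480 libraries; CONTROL was highest and SW480 lowest (-0.19 ± 0.04 in APC against CONTROL, 0.34 ± 0.04 in APC against SW480 and 0.53 ± 0.04 in CONTROL against SW480).

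Replicate spread of the members was small beside the larger changes and similar in size to many of the smaller ones. Over the 85 members with a mean of at least 10 CPM, the median coefficient of variation was 3.27% in APC, 2.74% in CONTROL and 4.60% in SW480. The highest were 18.2% for NDUFAF6 in APC, 9.13% for NDUFS7 in CONTROL and 18.2% for ATP5D in SW480. Some members shifted together with SW480 replicate 1, the library with the highest 45S share. NDUFB4 had 70.9, 69.8 and 67.6 CPM in the APC libraries, 56.97, 58.9 and 59.6 CPM in the CONTROL libraries and 74.5, 56.7 and 58.5 CPM in the SW480 libraries, and its difference in APC against SW480, not called at 0.13, was called at 0.27 without SW480 replicate 1 and at 0.15 with no filter on low counts. NDUFS6 had 140.2, 128 and 125 CPM in the APC libraries, 87.1, 96.01 and 93.2 CPM in the CONTROL libraries and 106, 81.8 and 85.4 CPM in the SW480 libraries, and its difference in CONTROL against SW480, not called at 0.02, was 0.14 and called without it. Over all 91 members tested, leaving out SW480 replicate 1 left 63 higher and 6 lower in APC against SW480. In CONTROL against SW480 it left 40 higher and 5 lower.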

How the data were processed

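PolyA RNA of 9 libraries was sequenced from TruSeq preparations, per the labels' protocols. Trimmomatic, TopHat, GATK and build hg19 are named in the submitters' processing notes; for the counting tool, its annotation, its use of strand and its rule for reads that match several genes, a statement is not given in the sources used here. Deposited by the authors were raw read counts per transcript and a table of RPKM values for the same transcripts, which equal the counts divided by transcript length and total count up to a constant. The deposited tables also give a transcript length. Of 39276 transcripts with counts, the one with the highest total was kept per gene. Names that a spreadsheet had turned into dates (65) were repaired from the transcript identifier for 62.

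The test was run in R 4.3.3 with edgeR 4.0.16 (scaling by TMM, filterByExpr, robust quasi-likelihood fit of all 3 groups, Benjamini-Hochberg adjustment over 14255 genes). CPM values use TMM-scaled library sizes (factors 0.982 to 1.03), and intervals are 95%. The common coefficient of biological variation was 3.56%. On simulated counts with 100 genes changed 1.5-fold and 100 changed 2-fold per comparison, 99% to 100% of either were recovered, with 0 in the wrong direction. Of the unchanged genes, 8 to 11 were called. In the data, 4 of 58, 6 of 69 and 1 of 45 called members in complexes or assembly passed 1.5-fold in the 3 comparisons. The simulation thus does not measure recovery of the smaller changes, and fewer genes were changed in it than were called in the data. A count of 3 corresponded to 0.156 to 0.184 CPM in a library, and such floors cover counting error only.

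The members and lists were chosen with earlier results of these data known. Values of all libraries are given for the 2 called members with the largest non-overlapping fold change in each complex, comparison and direction (mean of at least 10 CPM), for 12 catalytic or core members (1 other is not reported here) and for members with isoform partners; NDUFB4 and NDUFS6 were added after their values were seen. The regulators are all named, and other lists give up to 3 called genes per direction. Roles were assigned by hand. Alternatives were DESeq2 1.42.0, other scalings, no filter, summed transcripts, limma 3.58.1 on log2 RPKM with pseudocounts of 1 and 0.1, 6-library fits, a replicate block and leaving out each library. Promoter windows come from RefSeq on GRCh38.p14, matched through transcript accessions, and no coordinates were converted. The NRF1 and YY1 motifs were first searched with 1 more base and were shortened after that result had been seen; both results are given.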

Additional observations from a re-analysis of the deposited data

How the results depend on the processing

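The 6 counts of members called higher or lower stayed within 1.5 times of their reported values under every alternative run. Leaving out 1 library at a time gave 43 to 49 higher and 12 to 13 lower in APC against CONTROL, 61 to 66 and 6 to 7 in APC against SW480, and 37 to 42 and 4 to 7 in CONTROL against SW480. Scaling by total counts only gave 45 and 13, 56 and 10, and 34 and 7 in the same comparisons, and it moved the median over all genes in APC against SW480 to -0.06. DESeq2 gave 46 and 12, 64 and 6, and 40 and 6. Without read-through and copied genes, an alternative chosen after seeing the data, the counts were 45 and 13, 62 and 7, and 40 and 5. For 43 named genes in 3 comparisons, 2376 of 2451 values kept direction and side of the threshold, 49 lost the call, 26 gained one and 0 called values changed sign. Same-numbered libraries of different groups deviated together with correlations of -0.07 to 0.11, so the numbers were not taken as pairs; with the replicate block the counts were 45 and 12, 64 and 7, and 43 and 6. The members' median moved beyond its error in APC against CONTROL without APC replicate 1 (0.16). It also moved in APC against SW480 with total counts (0.19) or RPKM (0.20 with either pseudocount), and in CONTROL against SW480 with total counts (0.08) or RPKM and a pseudocount of 1 (0.10). Calls lost on leaving out 1 library included small differences and some larger ones, such as UQCRBP1 at 0.42 and COX5B at -0.32. COX6B2, COX7B2 and the members under the filter rest on few counts, and groups of 1 line each do not measure variation between lines.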
